A study of Mus musculus with 28 samples.

Results

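Single neurons of the primary motor cortex of mice exposed to ethanol before birth fell into separate ranges of mt-Nd1, the mitochondrial gene for subunit 1 of respiratory complex I. The neurons described here are 13 with an mt-Nd1 value over 4 (mt-Nd1-high) and 9 with a value of 4 or less (mt-Nd1-low), out of 22 ethanol-exposed neurons and 28 neurons in all. The sides were chosen from measured values, so mt-Nd1 itself is not a finding, and all other values are given as a description with no test.

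All neurons came from CD1 mice that were electroporated in utero at embryonic day 15 with 3 plasmids, pHSE-FLPo, pFRT-RFP and pCAGIG. The pair of FLPo and RFP plasmids reports activation of a heat shock element as red fluorescence (RFP), and pCAGIG marks electroporated cells with GFP. Dams were injected intraperitoneally at embryonic days 16 and 17 with 25% ethanol (EtOH) in PBS, with stated doses of 4.0 g/kg and of 1.0 g/kg, and the labels do not say which dose a given litter had. Control dams received PBS. Single M1 cells were sampled for their contents at postnatal day 30, giving 15 RFP-positive EtOH, 7 RFP-negative EtOH and 6 RFP-negative PBS neurons. The labels name no animal, so neurons may share a mouse or a litter, and spreads below are spreads between neurons. Electroporation at one embryonic day labels only part of the cortical neurons, and RFP-positive PBS neurons were not analysed here.

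Both sides held both reporter states in nearly the same proportion. Of the mt-Nd1-high neurons, 9 of 13 were RFP-positive (69.2%, exact 95% interval 38.6 to 90.9), and of the mt-Nd1-low neurons 6 of 9 were (66.7%, 29.9 to 92.5). Read the other way, 9 of 15 RFP-positive and 4 of 7 RFP-negative EtOH neurons were mt-Nd1-high. These intervals cover counting error only.

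Mitochondrial DNA is a small circle present in many copies per cell. It encodes a few core subunits of the respiratory chain and ATP synthase, the ribosomal RNAs of the mitochondrion and its transfer RNAs, and it is transcribed from each strand as long precursors that are cut into the single RNAs. All other subunits are encoded in the nucleus, translated in the cytosol and imported. A complex that holds mitochondrially encoded subunits therefore needs products of both genomes. Neurons depend heavily on this pathway for the energy that ion pumping and synaptic transmission use.

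The stretches below show the gene that set the sides and some of the places where mitochondrial genes share bases. The library kits do not keep the strand of an RNA, and a read in shared bases can belong to either gene. The stretches are given 5′ to 3′ from GENCODE M21 on GRCm38. The capitals mark, in turn, the start codon of mt-Nd1 (chrM:2751-2870, plus strand), the 43 bases that mt-Atp8 (chrM:7766-7969, plus strand) shares with mt-Atp6, the 3 bases that mt-Ts1 (chrM:6870-6938, minus strand) shares with mt-Co1 and the 14 bases that the end of mt-Nd6 (chrM:13552-13611, minus strand) shares with mt-Nd5.
mt-Nd1: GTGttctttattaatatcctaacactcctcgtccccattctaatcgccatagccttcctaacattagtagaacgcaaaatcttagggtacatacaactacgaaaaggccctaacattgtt
mt-Atp8: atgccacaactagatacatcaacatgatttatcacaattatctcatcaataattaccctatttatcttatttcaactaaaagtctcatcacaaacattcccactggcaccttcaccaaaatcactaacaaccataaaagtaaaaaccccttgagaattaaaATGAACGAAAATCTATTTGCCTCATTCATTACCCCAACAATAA
mt-Ts1: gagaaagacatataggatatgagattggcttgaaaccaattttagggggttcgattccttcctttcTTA
mt-Nd6: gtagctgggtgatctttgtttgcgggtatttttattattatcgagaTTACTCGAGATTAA
The printed stretch of mt-Nd1 shares 0 bases with another gene. Outside the printed stretches, mt-Nd1 shares 2 bases with mt-Ti, mt-Nd2 shares 2 with mt-Tw and mt-Nd4 shares 7 with mt-Nd4l. The mt-Ts1 gene, for a serine transfer RNA, is 69 bases long, against single reads of 51 bases, and its value is uncertain for that reason.

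The values are the deposited ones, on a log scale treated as log2, and they cover 1024 genes, selected by a threshold the sources do not state. They run from 1.00 to 13.22, and values up to 4 form their lowest mode. "Over 4" below means above that mode, and a value of 4 or less does not mean that a transcript was absent. Every difference is the mean of the mt-Nd1-high neurons minus the mean of the mt-Nd1-low neurons. Sequencing depth is unknown for each neuron. Of the 1023 other genes, 354 ± 49.3 were over 4 in an mt-Nd1-high neuron (range 284 to 433, SD, n = 13) and 333 ± 44.2 in an mt-Nd1-low neuron (273 to 402, n = 9), so the number of genes in the upper modes overlapped widely between the sides. The difference of 21.2 genes was 9.42 without 3 EtOH neurons of the high side (RFP-negative EtOH neuron 1 and RFP-positive EtOH neurons 1 and 2). These 3 were all of the EtOH neurons that shared fewer than 5 exact values with other neurons, and the low side held 0 of them. What sets these neurons apart is not given in the labels, and the values without them are given for the main results.

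The mt-Nd1 values left a wide gap. They averaged 10.11 ± 1.45 in mt-Nd1-high neurons (7.20 to 11.82, median 10.58) and 2.93 ± 0.47 in mt-Nd1-low neurons (2.53 to 3.94, median 2.70). The members nearest to the limit were RFP-negative EtOH neuron 7 at 7.20 and RFP-positive EtOH neuron 15 at 7.28 on the high side, and RFP-positive EtOH neurons 11 at 3.94 and 8 at 3.32 on the low side. A limit of 5 leaves the sides as they are, whereas a limit of 3 moves 4 neurons and gives 17 against 5. All 6 PBS neurons, which had no part in choosing the sides, had mt-Nd1 over 4, between 9.41 and 12.52.

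The other mitochondrially encoded RNAs were higher in the mt-Nd1-high neurons as a group. All 10 measured had a positive difference, beside 53.9% of all genes. Their median was 2.30, against a median of 0.10 over all 1023 genes. Of the 10, 7 were higher by at least 2, where 55 of 1023 genes were (5.38%). An mt-Nd1-high neuron had 7.54 ± 1.61 of the 10 over 4 (5 to 10, median 8), an mt-Nd1-low neuron had 5.56 ± 1.94 (3 to 8, median 6), and a PBS neuron had 9.33 ± 0.82 (8 to 10). The sides overlapped in this number. With every neuron shifted to a common upper quartile the median of the 10 genes was 2.06, while that of all genes was −0.14. Without the 3 neurons that shared few exact values it was 1.71, and 3 of the 10 genes (mt-Co1 at 3.46, mt-Cytb at 2.66 and mt-Atp8 at 2.02) were higher by at least 2. The genes then below 2 were mt-Nd5 at 1.77, mt-Nd2 at 1.74, mt-Rnr1 at 1.67 and mt-Ts1 at 1.56.

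**Figure D1:**
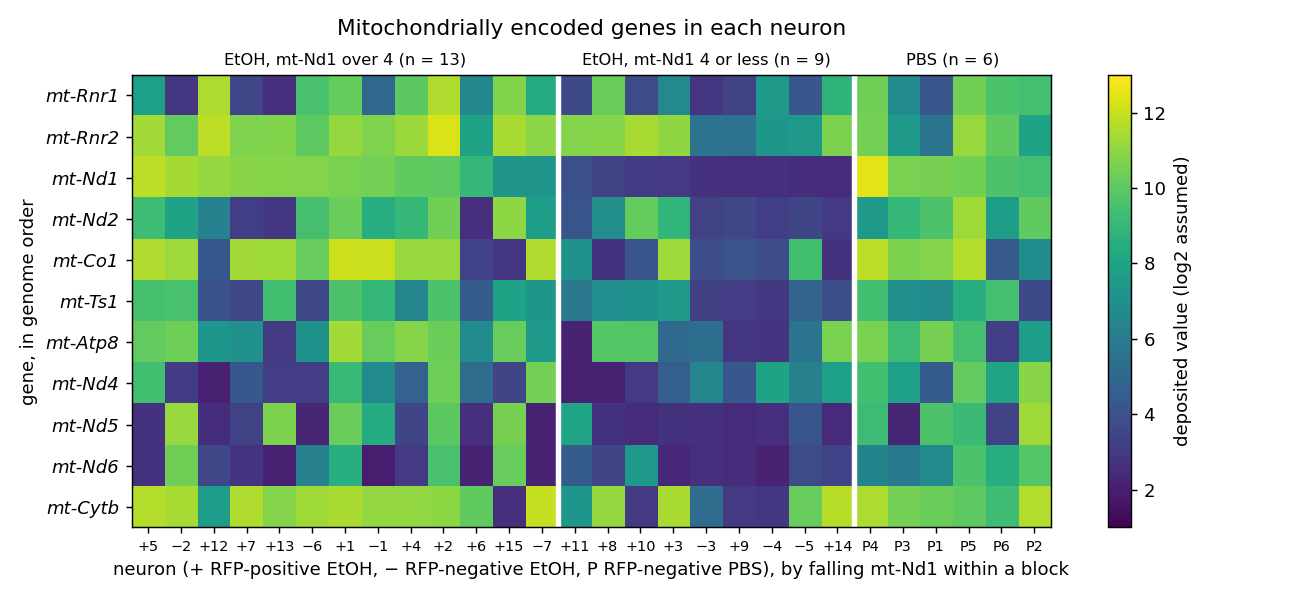
Deposited value (colour, log2 assumed) of each mitochondrially encoded gene, in genome order from top to bottom, in each neuron, with blocks of 13 mt-Nd1-high EtOH, 9 mt-Nd1-low EtOH and 6 PBS neurons ordered by falling mt-Nd1. The mt-Nd1 row set the first 2 blocks; mt-Co1 and mt-Cytb are over 4 in 11 and 12 of the 13 mt-Nd1-high neurons and in 5 and 6 of the 9 mt-Nd1-low neurons, and single mt-Nd1-low neurons are bright in other rows.

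Among the other protein-coding genes of the mitochondrion, mt-Co1 differed most. This gene encodes the catalytic subunit of cytochrome c oxidase, the last complex of the chain. Its values had a median of 11.24 in mt-Nd1-high neurons (2.89 to 12.10) and of 4.05 in mt-Nd1-low neurons (2.74 to 11.25), and the means were 9.56 ± 3.47 and 5.45 ± 3.07, a difference of 4.12. It was over 4 in 11 of 13 mt-Nd1-high, 5 of 9 mt-Nd1-low and 6 of 6 PBS neurons. RFP-positive EtOH neuron 3 had the highest mt-Co1 of the low side at 11.25, inside the range of the high side.

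For mt-Cytb, the mitochondrial subunit of complex III, the median was 11.05 in mt-Nd1-high neurons (2.65 to 11.96) and 7.31 in mt-Nd1-low neurons (2.95 to 11.73), with a difference of means of 2.93. It was over 4 in all but 1 of the mt-Nd1-high neurons, RFP-positive EtOH neuron 15, whose value was 2.65. The mt-Nd1-low neurons split, with 4 at 10.23 or more and 3 at 3.03 or less. The ATP synthase subunit gene mt-Atp8 had a median of 10.11 in mt-Nd1-high neurons (3.04 to 11.32) and 5.36 in mt-Nd1-low neurons (2.15 to 10.58), a difference of means of 2.61.

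The complex I genes were less uniform. Of those other than mt-Nd1, mt-Nd2 was over 4 in 10 of 13 mt-Nd1-high and 4 of 9 mt-Nd1-low neurons, with a difference of 2.39. mt-Nd5 was over 4 in 6 of 13 and 2 of 9, with a difference of 2.77. mt-Nd4 was over 4 in 8 of 13 and 6 of 9, and its difference of 0.87 became −0.01 without the 3 neurons that shared few exact values. mt-Nd6, the protein gene read from the other strand, was over 4 in 5 of 13 mt-Nd1-high and 2 of 9 mt-Nd1-low neurons but in all 6 PBS neurons. Its median was 3.03 in mt-Nd1-high, 3.43 in mt-Nd1-low and 7.62 in PBS neurons, so the order of the medians ran against the positive difference of means, 1.46.

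Both mitochondrial ribosomal RNAs also had higher means on the high side. mt-Rnr2, the large one, was over 4 in every neuron of the series. It averaged 10.78 ± 1.07 in mt-Nd1-high neurons (7.92 to 12.31) and 8.96 ± 2.45 in mt-Nd1-low neurons (5.53 to 11.44), and the difference of 1.82 was below the spread between the mt-Nd1-low neurons. Of these, 5 lay between 10.63 and 11.44 and 4 between 5.53 and 7.51. mt-Rnr1, the small one, was over 4 in 10 of 13 mt-Nd1-high and 5 of 9 mt-Nd1-low neurons, with a difference of 2.03. mt-Ts1 differed by 2.21.

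An mt-Nd1 value in the lowest mode did not mean that the other mitochondrial RNAs were there too. RFP-positive EtOH neuron 3, mt-Nd1-low at 3.03, had mt-Cytb at 11.47, mt-Rnr2 at 11.01 and 8 of the 10 other genes over 4. RFP-positive EtOH neuron 14, at 2.53, had mt-Cytb at 11.73 and mt-Atp8 at 10.58, and RFP-positive EtOH neuron 10 had mt-Nd2, the next protein gene after mt-Nd1, at 10.16. At the other end, RFP-negative EtOH neuron 4 and RFP-positive EtOH neuron 9 had 3 of 10 over 4, and RFP-negative EtOH neuron 3 had 4 of 10. The high side varied as well: RFP-positive EtOH neurons 7 and 13 had 5 of 10 over 4, and RFP-positive EtOH neurons 1 and 2 had all 10.

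**Figure D2:**
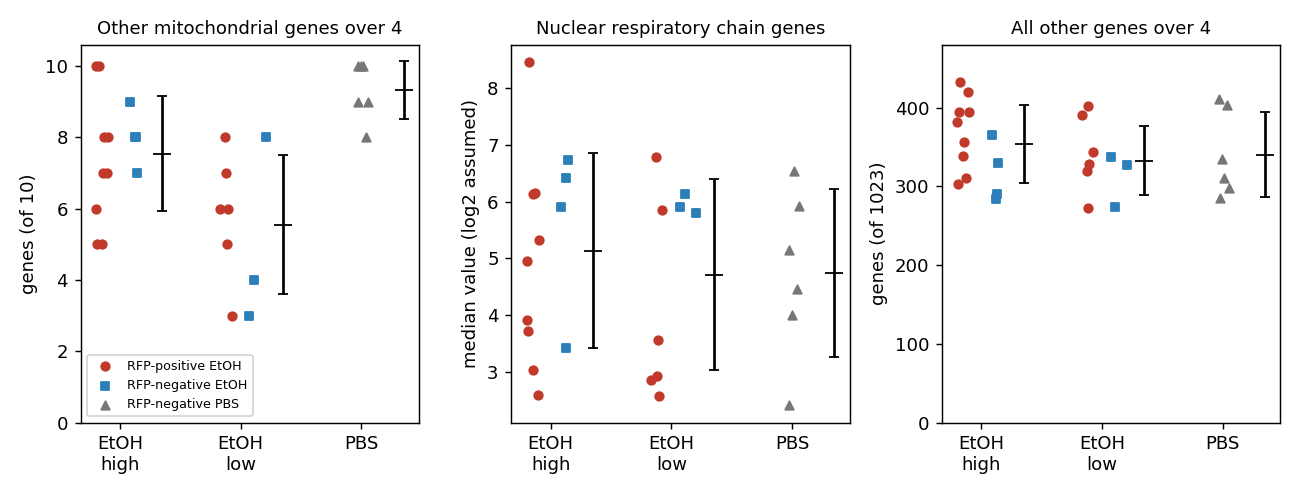
Per-neuron counts of other mitochondrially encoded genes over 4 (left, of 10), median deposited value of 26 nuclear respiratory chain and ATP synthase genes (middle, log2 assumed) and number of all other genes over 4 (right, of 1023). Points are neurons and bars are the mean ± SD of 13 mt-Nd1-high EtOH, 9 mt-Nd1-low EtOH and 6 PBS neurons. The left panel has means of 7.54, 5.56 and 9.33, while the other panels overlap over most of their range.

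The median mitochondrial difference was positive in each reporter state on its own, with the 3 neurons that shared few exact values included. Of the 10 other mitochondrial genes, 9 had a positive difference among both the RFP-positive and the RFP-negative EtOH neurons, beside 30.5% of all genes. The exception was mt-Nd4 at 1.79 and −0.97. The median was 1.81 among RFP-positive EtOH neurons (9 mt-Nd1-high, 6 mt-Nd1-low) and 3.66 among RFP-negative EtOH neurons (4 and 3). This difference between reporter states was not tested. RFP-positive EtOH neurons 1 and 2, which had all 10 genes over 4, and RFP-negative EtOH neuron 1 are on the high side. The medians within each state were not computed without these 3 neurons, so how far they rest on them is not known. Among RFP-negative EtOH neurons, every mt-Nd1-high value lay above every mt-Nd1-low value for mt-Rnr2, mt-Nd2, mt-Co1, mt-Atp8 and mt-Cytb, which is 5 of 10, where 48 of 1023 genes did so (4.69%). The opposite order, every mt-Nd1-high value below every mt-Nd1-low value, was found for 20 genes (1.96%) and for 0 of the 10. For mt-Nd2 the mt-Nd1-high neurons had 8.49, 7.92, 9.46 and 7.68 and the mt-Nd1-low neurons had 3.33, 3.25 and 3.53. For mt-Co1 they had 12.06, 11.24, 10.21 and 11.57, against 3.82, 3.83 and 9.38 in the mt-Nd1-low neurons. Among RFP-positive EtOH neurons, 0 of 1023 genes separated the sides in this way (0.0%), and over all 22 neurons 0 did (0.0%).

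Nuclear genes of the respiratory chain and ATP synthase showed no comparable shift. Of 26 measured nuclear genes of the respiratory chain, ATP synthase and the ADP/ATP carriers, 18 had a positive and 8 a negative difference. Among all genes, 53.9% had a positive and 46.1% a negative one. The median of the 26 was 0.27, close to the 0.10 of all genes. This median was 0.03 with a common upper quartile and −0.00 without the 3 neurons that shared few exact values. The median of these genes within a neuron was 5.14 ± 1.72 in mt-Nd1-high neurons (2.59 to 8.47) and 4.72 ± 1.69 in mt-Nd1-low neurons (2.58 to 6.79), so the sides covered nearly the same range. By complex, the median difference was 0.31 for 7 genes of nuclear complex I, 0.23 for 9 genes of complexes II and III, cytochrome c and its oxidase, and 0.19 for 10 genes of ATP synthase and its carriers.

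Of the 26, 1 was at least 2 higher and 1 at least 2 lower, beside 5.38% and 2.44% of all genes. Ndufa4, first described as a complex I subunit and later assigned to cytochrome c oxidase, was over 4 in 13 of 13 mt-Nd1-high neurons (median 8.59, range 4.85 to 10.14) and 4 of 9 mt-Nd1-low neurons (median 3.46, 2.11 to 10.15), a difference of 2.46. Atp5g1, which encodes subunit c of the membrane ring of ATP synthase, was over 4 in 5 of 13 mt-Nd1-high neurons (median 2.12, 1.10 to 8.96) and 8 of 9 mt-Nd1-low neurons (median 6.73, 1.47 to 9.39), a difference of −2.74. Both came from the RFP-positive EtOH neurons, where they were 3.85 and −4.16; among RFP-negative EtOH neurons they were −0.37 and 0.14. Smaller differences were 1.43 for Uqcrh of complex III, 1.26 for cytochrome c (Cycs) and 1.20 for the catalytic ATP synthase subunit Atp5b. The last was 0.68 without the 3 neurons that shared few exact values. The complex I subunit Ndufs1 differed by −1.31 and Cox8a of cytochrome c oxidase by −1.43. Cox8a was at −3.11 among RFP-positive and 2.12 among RFP-negative EtOH neurons, while Ndufs1 was at −1.32 and −1.21.

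Other metabolic lists lay on either side of the all-gene median. All 6 measured genes of glycolysis and lactate had a negative difference, with a median of −0.78, where 46.1% of all genes had one. The largest was that of Pgk1, a phosphoglycerate kinase, with a difference of −1.45. Pgk1 was over 4 in 6 of 13 mt-Nd1-high and 9 of 9 mt-Nd1-low neurons. Its difference was −2.43 among RFP-positive and 0.79 among RFP-negative EtOH neurons. The list median was −0.04 among RFP-positive and −1.64 among RFP-negative EtOH neurons. Negative in both was 1 of the 6 genes, beside 18.8% of all genes. Of 10 genes of the mitochondrial matrix, import and outer membrane, 4 were positive and 6 negative (median −0.32). The 10 antioxidant genes were split 5 to 5, with a median of −0.41. Their largest difference, that of Sod1, was positive, while those of the peroxiredoxins Prdx5 and Prdx2 were −1.34 and −1.26. Prdx2 was at 0.26 among RFP-positive and −4.46 among RFP-negative EtOH neurons, and Prdx5 at −1.29 and −1.51.

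Across the whole table, 55 of 1023 genes (5.38%) had a mean at least 2 higher and 25 (2.44%) a mean at least 2 lower in mt-Nd1-high neurons. Of the 55, 48 were nuclear, out of 1013 (4.74%). With every neuron shifted to a common upper quartile the counts were 35 higher and 39 lower, and without the 3 neurons that shared few exact values 65 and 40. The direction of the balance between higher and lower genes therefore rests on the scaling. A positive difference was found for 551 genes (53.9%) and a negative one for 472 (46.1%).

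The reporter states, which share no neurons, gave unlike nuclear differences. A difference had the same sign in both for 504 of 1023 genes (49.3%; positive in both for 312, 30.5%, and negative in both for 192, 18.8%) and for 495 of the 1013 nuclear genes (48.9%). Across genes, the differences of the RFP-positive and RFP-negative EtOH neurons had a Pearson correlation of −0.05 and a Spearman correlation of −0.03 (n = 1023 genes of the same libraries, which are not independent of each other). Within RFP-positive EtOH neurons 103 genes (10.1%) were at least 2 higher and 63 (6.16%) at least 2 lower, and within the smaller RFP-negative sets 137 (13.4%) and 156 (15.2%) were. At least 2 higher in both states were 10 genes (0.978%), 8 of them nuclear (0.79% of nuclear genes), namely mt-Co1, mt-Nd5, Sod1, Gpm6a, Eif4a2, Stmn1, Stmn2, Ywhab, Cacng3 and G3bp2. At least 2 lower in both were 7 genes (0.684%), namely Dnajc6, Uba1, Akap9, Fam49a, Eloc, Arpc5 and Zfp638. G3bp2 and Zfp638 are named after their values were seen.

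**Figure D3:**
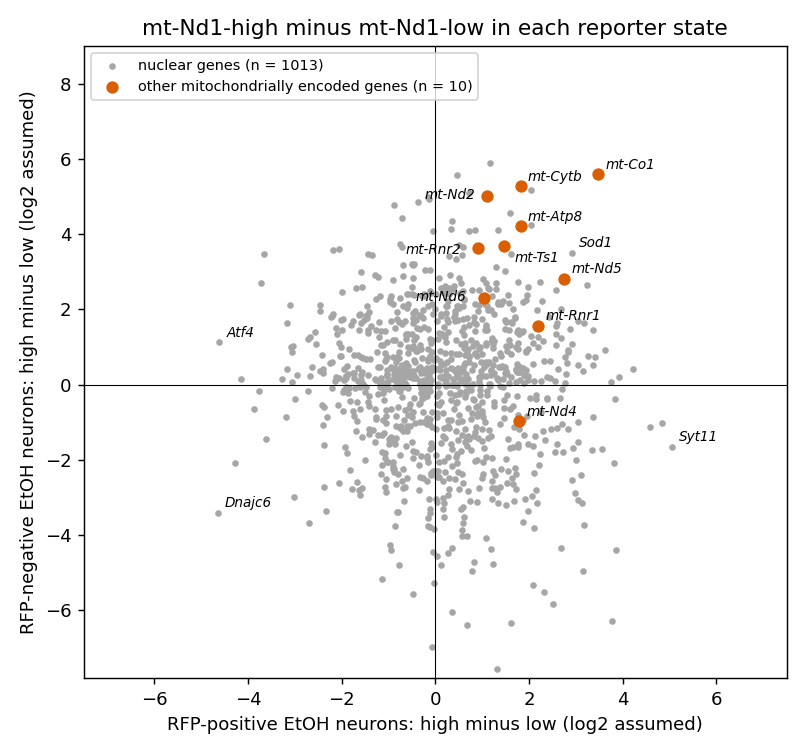
Difference between mt-Nd1-high and mt-Nd1-low means (log2 assumed) for each gene among RFP-positive EtOH neurons (x axis, 9 and 6 neurons) and RFP-negative EtOH neurons (y axis, 4 and 3 neurons). Grey points are 1013 nuclear genes and orange points are the 10 other mitochondrially encoded genes, of which 9 lie at the upper right and mt-Nd4 at 1.79 and −0.97 below the horizontal line.

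Sod1 had the largest positive difference among nuclear genes that met the naming rule. It encodes the copper-zinc superoxide dismutase of the cytosol and the mitochondrial intermembrane space, and lies at chr16:90220754-90226329 (GRCm38, plus strand). Its values had a median of 6.44 in mt-Nd1-high neurons (1.97 to 9.65) and 2.93 in mt-Nd1-low neurons (1.45 to 5.07), and the means were 6.18 ± 2.11 and 3.09 ± 1.00. It was over 4 in 11 of 13 mt-Nd1-high neurons (84.6%, exact 95% interval 54.6 to 98.1) and 1 of 9 mt-Nd1-low neurons (11.1%, 0.281 to 48.2), as well as in 4 of 6 PBS neurons. Sod1 was picked for its difference in these same neurons. The intervals cover counting error only, treat neurons as independent and are no comparison of the sides. The difference was 3.10 over all 22 neurons and 2.92 among the RFP-positive ones.

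Among the RFP-negative EtOH neurons every mt-Nd1-high Sod1 value lay above every mt-Nd1-low value, as for 48 of 1023 genes (4.69%). The values were 6.37, 7.82, 5.44 and 6.52 in the mt-Nd1-high neurons and 2.83, 3.58 and 2.69 in the mt-Nd1-low neurons. These neurons also had a part in picking Sod1. The exceptions were RFP-positive: EtOH neurons 6 and 7 on the high side were at 2.90 and 1.97, and EtOH neuron 9 on the low side was at 5.07.

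Gpm6a, Stmn2 and Stmn1 also had large positive differences. Gpm6a, a membrane glycoprotein of neurites, was over 4 in 11 of 13 mt-Nd1-high neurons (median 8.78, 1.10 to 10.80) and 3 of 9 mt-Nd1-low neurons (median 2.64, 1.39 to 11.10), a difference of 3.08. Stmn2, a microtubule-destabilising protein of growing axons, was over 4 in 10 of 13 (median 6.50, 1.51 to 10.38) and 2 of 9 (median 1.78, 1.51 to 9.10), a difference of 2.76. Its relative Stmn1 had a median of 9.75 in mt-Nd1-high and 6.30 in mt-Nd1-low neurons and differed by 2.52. Some mt-Nd1-low neurons lay well inside the high range. For Gpm6a these were RFP-positive EtOH neurons 8 at 11.10 and 14 at 9.92 and RFP-negative EtOH neuron 5 at 8.62. For Stmn1 they were RFP-positive EtOH neuron 9 at 11.02 and RFP-negative EtOH neuron 5 at 10.46, and for Stmn2 RFP-positive EtOH neuron 9 at 9.10. The list of tubulins, neurofilaments and motors, which holds both stathmins, was split 9 to 8 with a median of 0.02, and the list of actin and its regulators 5 to 5 with a median of −0.14.

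Eif4a2, an RNA helicase of translation initiation, was over 4 in 12 of 13 mt-Nd1-high neurons (median 10.01, 3.46 to 11.22) and 5 of 9 mt-Nd1-low neurons (median 7.24, 2.68 to 10.06), and differed by 3.04. Its exons overlap those of Rfc4 on the opposite strand by 194 bases, so part of its value may belong to that gene. Cacng3, an auxiliary subunit of AMPA receptors, was over 4 in 8 of 13 mt-Nd1-high neurons (median 4.52, 1.52 to 9.82) and 3 of 9 mt-Nd1-low neurons (median 2.14, 1.35 to 4.75), a difference of 2.40. No mt-Nd1-low neuron was above 4.75, while 4 mt-Nd1-high neurons were at 9.26 or more.

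The remaining large positive differences varied with reporter state. The deubiquitinase Otub1 differed by 3.02, which was 4.22 among RFP-positive and 0.43 among RFP-negative EtOH neurons. Neuroserpin (Serpini1) differed by 2.73, with 3.17 and 1.64, and the receptor-sorting protein Gprasp1 by 2.66, with 1.17 and 5.90. Ghitm, an inner mitochondrial membrane protein, differed by 2.91 over both states, but by 4.84 among RFP-positive and −1.03 among RFP-negative EtOH neurons. Syt11, a synaptotagmin, was similar at 2.89, 5.05 and −1.64, and the RNA-binding protein Hnrnpa2b1 at 2.73, 4.59 and −1.13. For these 3 genes the difference came from the RFP-positive EtOH neurons.

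**Figure D4:**
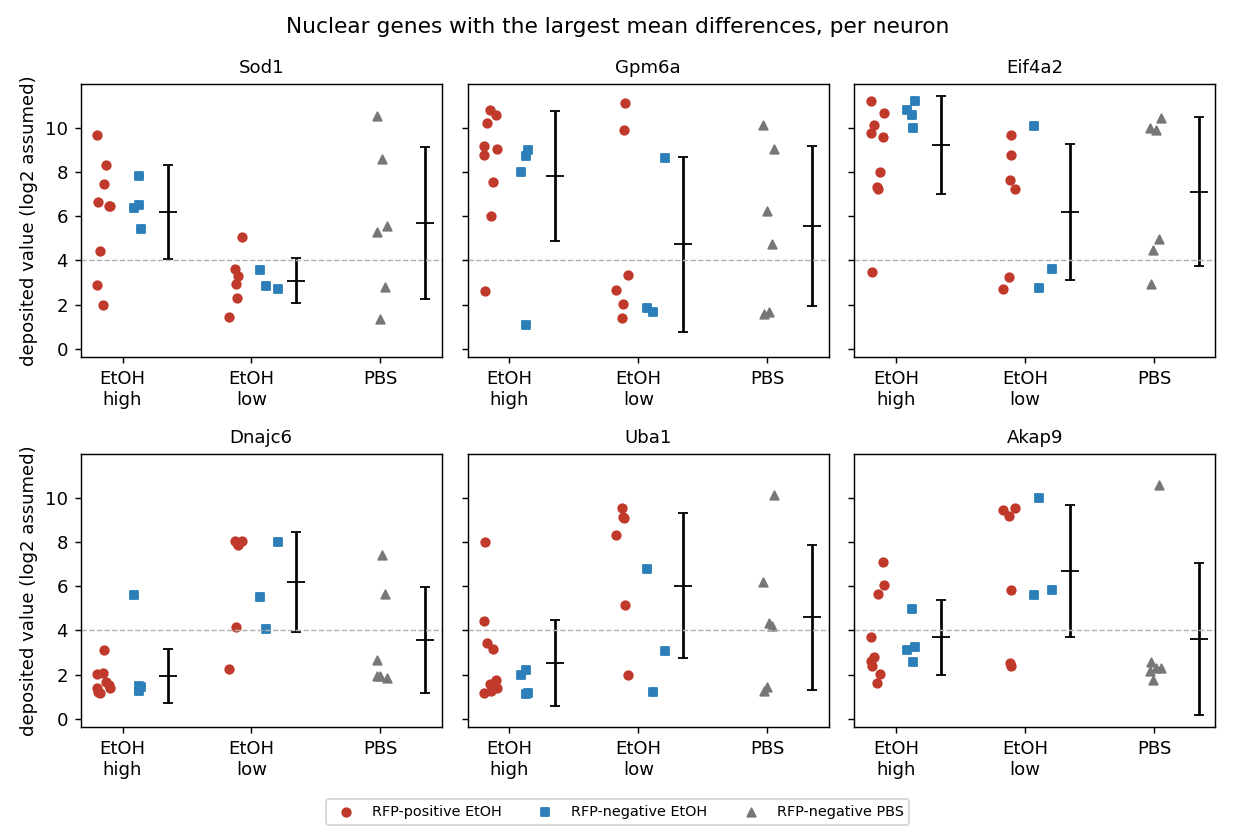
Deposited value (y axis, log2 assumed) of 3 nuclear genes with the largest positive and 3 with the largest negative difference, in each mt-Nd1-high EtOH, mt-Nd1-low EtOH and PBS neuron, with bars at the mean ± SD (n = 13, 9 and 6) and a dashed line at 4. Sod1 is over 4 in 11 of 13, 1 of 9 and 4 of 6 neurons, and Dnajc6 in 1 of 13, 8 of 9 and 2 of 6.

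Dnajc6 had the largest difference of any nuclear gene in either direction that met the naming rule, and it was lower in mt-Nd1-high neurons. It encodes auxilin, the neuronal co-chaperone that recruits Hsc70 to strip clathrin from newly formed vesicles, at chr4:101496648-101642799 (plus strand). Its median was 1.49 in mt-Nd1-high neurons (1.18 to 5.62) and 7.89 in mt-Nd1-low neurons (2.24 to 8.03), with means of 1.95 ± 1.22 and 6.21 ± 2.26 and a difference of −4.25. It was over 4 in 1 of 13 mt-Nd1-high neurons (7.69%, exact 95% interval 0.195 to 36.0) and 8 of 9 mt-Nd1-low neurons (88.9%, 51.8 to 99.7), and in 2 of 6 PBS neurons. Dnajc6 was likewise picked for its difference, so these intervals are no comparison of the sides either.

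The exceptions for Dnajc6 were RFP-negative EtOH neuron 1 at 5.62, one of the 3 that shared few exact values, and RFP-positive EtOH neuron 10 on the low side at 2.24. Its difference was −4.65 among RFP-positive and −3.40 among RFP-negative EtOH neurons. The PBS neurons, all with mt-Nd1 over 4, averaged 3.57, with 4 of them from 1.83 to 2.65 and the others at 5.66 and 7.43. Hspa8, the Hsc70 that works with auxilin, was over 4 in 11 of 13 mt-Nd1-high and 8 of 9 mt-Nd1-low neurons and differed by −1.36.

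Uba1, Akap9 and Fam49a followed among the genes with lower means in mt-Nd1-high neurons. Uba1, the main ubiquitin-activating enzyme, was over 4 in 2 of 13 mt-Nd1-high neurons (median 1.74, 1.11 to 8.01) and 6 of 9 mt-Nd1-low neurons (median 6.78, 1.23 to 9.52), a difference of −3.52. Akap9, a scaffold that anchors protein kinase A at the centrosome and Golgi, was over 4 in 4 of 13 (median 3.09, 1.62 to 7.11) and 7 of 9 (median 5.85, 2.40 to 10.00), a difference of −3.02. Its exons overlap those of Cyp51 on the opposite strand by 166 bases. For Fam49a, a regulator of Rac1 signalling, 5 of 13 mt-Nd1-high neurons (median 2.41, 1.39 to 10.10) and 7 of 9 mt-Nd1-low neurons (median 7.14, 2.31 to 10.77) were over 4, with a difference of −3.02 among RFP-positive and −2.99 among RFP-negative EtOH neurons.

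All 3 of these were at least 2 lower in both reporter states, as was Eloc (elongin C, part of ubiquitin ligase complexes), with −2.66 over both. They were named for their difference over both states together, and 7 of 1023 genes (0.684%) were at least 2 lower in each state. Naca, which binds polypeptides as they leave the ribosome, differed by −2.90, with −3.63 among RFP-positive and −1.44 among RFP-negative EtOH neurons. The Hsp90 co-chaperone Ptges3 and the membrane adaptor Ank2 differed by −2.82 and −2.63, mostly through the RFP-positive EtOH neurons, where they were −3.88 and −3.76. Atf4, a transcription factor of the integrated stress response, was over 4 in 1 of 13 mt-Nd1-high and 5 of 9 mt-Nd1-low neurons (−2.73). All 5 of those mt-Nd1-low neurons were RFP-positive, and its difference was −4.61 among RFP-positive and 1.13 among RFP-negative EtOH neurons.

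Counting neurons over 4 in place of averaging gave overlapping sets of genes. A share of neurons over 4 at least 50 points higher on the high side was found for 10 genes (0.978%), namely Sod1, Gpm6a, Ndufa4, Ube2e3, Gprasp1, B230219D22Rik, Dcaf12, Ramp1, Stmn2 and Serpini1. A share at least 50 points lower was found for 5 genes (0.489%), namely Dnajc6, Uba1, Naca, Atp5g1 and Pgk1. None of the 15 was mitochondrially encoded. Ube2e3, B230219D22Rik, Dcaf12 and Ramp1 are named after their values were seen.

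Gene lists outside the mitochondrion had medians nearer to that of all genes. The 14-3-3 proteins, adaptors that bind phosphorylated proteins, came next after the mitochondrial genes, with a median of 1.73. Of the 6 measured, 5 were positive, beside 53.9% of all genes. Ywhab was over 4 in all 22 EtOH neurons, with a median of 9.85 in mt-Nd1-high neurons (4.95 to 10.86) and 6.37 in mt-Nd1-low neurons (5.22 to 10.05), and its difference was 2.25 over both states, 2.27 among RFP-positive and 2.22 among RFP-negative EtOH neurons. Ywhae and Ywhaq differed by 1.78 and 1.85. The family median was 2.41 among RFP-positive and −0.13 among RFP-negative EtOH neurons, 1.49 with a common upper quartile and −0.14 with an mt-Nd1 limit of 3.

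Genes of synaptic vesicle fusion and release were positive for 9 of 10, beside 53.9% of all genes. Positive in both reporter states were 4 of the 10, beside 30.5% of all genes. The median of the 10 vesicle genes, 0.84, was 1.18 among RFP-positive and 0.35 among RFP-negative EtOH neurons. It was 0.60 with a common upper quartile and 0.05 with an mt-Nd1 limit of 3. One of them, Syt11, passed a difference of 2, and Sv2b differed by 1.28. Receptors for GABA and glutamate and their partners were positive for 6 of 7 (median 0.71), beside 53.9% of all genes. Of the 7, 3 were positive in both reporter states, beside 30.5% of all genes. The list median was 1.26 among RFP-positive and 0.04 among RFP-negative EtOH neurons. Gabra2 was over 4 in 4 of 13 mt-Nd1-high and 0 of 9 mt-Nd1-low neurons, while Gabarapl1 and Gabarap differed by −1.70 and 1.68. The 9 ubiquitin and SUMO genes were negative for 7 (median −0.51), beside 46.1% of all genes. All 4 measured subunits of the CCT chaperonin were negative (median −0.83), beside 46.1% of all genes, with Cct8 at −2.06. Of the 4, 2 were negative in both reporter states, beside 18.8% of all genes. However, the CCT median among RFP-negative EtOH neurons was 0.12. The 21 cytosolic ribosomal protein genes, whose values are uncertain because of near-identical copies, were split 11 to 10, with a median of 0.09.

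**Figure D5:**
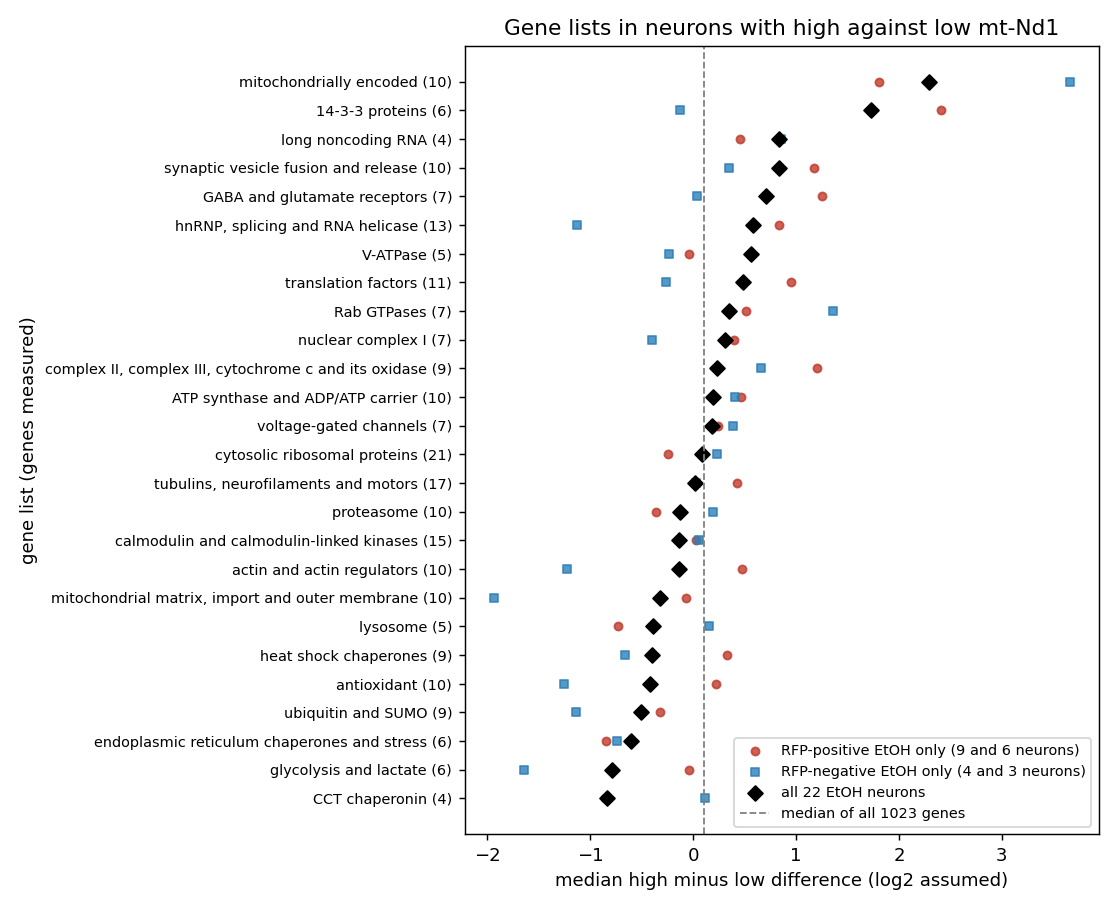
Median over the measured genes of each list (number in brackets) of the difference between mt-Nd1-high and mt-Nd1-low means (x axis, log2 assumed), for all 22 EtOH neurons (diamonds), RFP-positive EtOH neurons (circles) and RFP-negative EtOH neurons (squares). The dashed line is the median of all 1023 genes, 0.10. The mitochondrially encoded list stands at 2.30, 1.81 and 3.66, while for the 14-3-3 list the circle is at 2.41 and the square at −0.13.

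Single genes of other lists passed a difference of 2. The proteasome list was split 5 to 5 (median −0.13), yet Psmd14 and Psma3 differed by 2.48 and 2.22, and Psmd14 was over 4 in 6 of 13 mt-Nd1-high and 0 of 9 mt-Nd1-low neurons. The medians of Psmd14 were 2.55 in mt-Nd1-high and 2.62 in mt-Nd1-low neurons. The lysosomal proteases Ctsb and Ctsd differed by 2.29 and 2.11 and the vesicle-traffic GTPase Rab14 by 2.62. The dynein heavy chain Dync1h1 differed by 2.11, the ribosomal protein gene Rpl13 by 2.09 and the transcript listed as Cdr1 by 2.05. Among RFP-positive and RFP-negative EtOH neurons, Psmd14 was at 3.25 and 0.77 and Dync1h1 at 2.81 and 0.57. Cdr1 was at 0.46 and 5.58, and Rpl13 at 2.17 and 1.98. Tmeff2, a transmembrane protein, was over 4 in 6 of 13 mt-Nd1-high and 0 of 9 mt-Nd1-low neurons and differed by 2.44. Arpc5, a subunit of the Arp2/3 actin-nucleating complex, differed by −2.19.

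The gene that the study's title names, Kcnn2, a small-conductance calcium-activated potassium channel, did not follow mt-Nd1. It was over 4 in 3 of 13 mt-Nd1-high neurons (7.46, 5.45 and 4.89), 3 of 9 mt-Nd1-low neurons (9.77, 6.22 and 4.18) and 0 of 6 PBS neurons, and all 6 of the EtOH neurons over 4 were RFP-positive. Its difference was −0.42, against an SD of 1.79 among mt-Nd1-high and 2.80 among mt-Nd1-low neurons. The immediate early gene Fos differed by −0.37 and was over 4 in 3 of 13 and 4 of 9 neurons.

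Of the listed markers of pyramidal neurons, upper layers and interneurons, the table holds 1 each. Nrgn, a calmodulin-binding protein of pyramidal neurons, was over 4 in all 22 EtOH neurons, at 8.10 ± 1.45 in mt-Nd1-high and 8.23 ± 1.11 in mt-Nd1-low neurons. Mef2c, a transcription factor listed for upper layers, was over 4 in 11 of 13 and 8 of 9 and differed by −0.82, which was −1.90 among RFP-negative EtOH neurons and −1.50 without the 3 neurons that shared few exact values. The interneuron marker Gad1 was over 4 in 3 of 13 mt-Nd1-high neurons and 2 of 9 mt-Nd1-low neurons, and in single neurons it reached 9.83 and 6.87, beside Nrgn over 4. Leaving out the 5 neurons with Gad1 over 4 kept a median of 2.22 for the mitochondrial genes.

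Of the markers of other cell types, Slc1a2 moved with the sides. This glutamate transporter, most abundant in astrocytes, was over 4 in 9 of 13 mt-Nd1-high and 2 of 9 mt-Nd1-low neurons, with a difference of 1.92 that was 2.77 among RFP-positive and 0.05 among RFP-negative EtOH neurons, and 1.23 without the 3 neurons that shared few exact values. Of 9 astrocyte markers on the list 2 were in the table, and the other, Aldoc, was over 4 in 2 of 13 and 1 of 9. The sum of the 2 values ran from 3.06 to 13.65 in mt-Nd1-high and from 3.43 to 12.17 in mt-Nd1-low neurons. For oligodendrocytes, Mbp was over 4 in 4 of 13 and 1 of 9 neurons. For microglia, Csf1r was over 4 in 2 of 13 and 1 of 9 and Cst3 in 5 of 13 and 5 of 9, with sums of 3.99 to 14.98 and 3.51 to 16.62. Whether material of other cells has a part in the differences described here was not tested.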

How the data were processed

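Per the labels' protocols, the contents of single neurons were converted with the SMARTer Ultra Low Input RNA Kit v3 and Nextera XT, sequenced on a HiSeq 2500 as single reads of 51 cycles, demultiplexed with CASAVA 1.8 and filtered with the FASTX-Toolkit. Bowtie2 and Cufflinks 2.2.1 are named in the submitters' processing notes, with the build GRCm38. Later steps are not given in the sources used here.

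As deposited, the table holds 1024 genes in 28 columns of log values, 1 per neuron and 0 of other samples. The authors' log base is not stated, and log2 was assumed; another base would scale all differences by 1 factor. Depth is unknown. Groups follow titles and exposure labels. The series' design text counts 5 PBS neurons and the labels give 6, all used, although EtOH appears in the time course given for those neurons. EtOH neurons were split at an mt-Nd1 value of 4.

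Differences of mean deposited values were computed with Python 3.11.15, pandas 2.3.3, numpy 2.4.6 and scipy 1.17.1. Known shifts added to shuffled values were recovered, which checks the arithmetic only. Because no animal is named and the sides come from measured values, each side counts as 1 sample and no test between the sides was run. Intervals are exact Clopper-Pearson. The members, gene lists and alternatives were chosen with earlier results of these data known. Named genes are all mitochondrial ones, the 10 largest differences each way (over 4 in at least 50% of the higher side; no pseudogenes, predicted genes, clone names, Y-linked genes or Xist), the 3 largest of each list, 5 at each end of the Spearman correlation with mt-Nd1, and Kcnn2, Gad1, Fos and Mbp, 114 in all, of which those that show a pattern are described and some are not reported here. Of these, 47 have exons that overlap another gene in GENCODE M21, which matched 1020 of 1024 identifiers. The kits keep no strand, so such values may mix genes. Lists of Na+/K+ ATPases and of markers of deep layers, endothelium and blood had 0 genes in the table.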

Additional observations from a re-analysis of the deposited data

Results flagged for a closer look

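In 6 of 34 sets of values that were looked at, 1 of the 9 mt-Nd1-low neurons stood apart from the other 8 by a gap that exceeded Dixon's 95% limit for 9 values (0.493 of the range). Chance flags about 1 in 20 such sets when values are normally distributed, which these are not, and neurons may share an animal, so the limit serves only to pick values to describe. Some of the genes were named because the low side is low. RFP-positive EtOH neuron 11 had mt-Nd5 at 8.016, where the others lay between 2.47 and 4.23, and RFP-positive EtOH neuron 10 had mt-Nd6 at 7.381, where the others were at 4.54 or less. RFP-negative EtOH neuron 3 had Syt11 at 11.199, against 1.64 to 6.08 in the others, and Ptges3 at 2.693, against 7.10 to 10.48. RFP-positive EtOH neuron 3 had Serpini1 at 9.043, against 1.55 to 4.55. RFP-positive EtOH neuron 9 had Gprasp1 at 9.87, against 1.56 to 5.56. The mt-Nd5, mt-Nd6, Syt11, Serpini1 and Gprasp1 values lie within the range of the mt-Nd1-high neurons for that gene, and the Ptges3 value lies below that range.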

How the results depend on the processing

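The counts of genes past a difference of 2 depend strongly on the settings. The 55 genes at least 2 higher became 94 with medians of neurons, 245 with arithmetic means, 35 with a common upper quartile, 103 and 137 within RFP-positive and RFP-negative EtOH neurons, 87 without the neurons with Gad1 over 4, and 230 or 5 with a difference of at least 1 or 3. The 25 genes at least 2 lower became 61, 202, 39, 63, 156 and 47 under the same first 6 settings, 166 or 4 with at least 1 or 3, 66 with an mt-Nd1 limit of 3, and 40 without the 3 neurons that shared few exact values. Leaving out each neuron in turn gave 50 to 66 higher and 22 to 37 lower. The cause was not tested.

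The median of the other mitochondrial genes (2.30) stayed positive throughout, from 1.71 to 3.66, and from 2.07 to 2.63 with 1 neuron left out. Of 42 named genes past a difference of 2, all kept their sign with 1 neuron left out. This could not come out otherwise, because within the range of the values 1 neuron of 9 or 13 cannot move a mean by 2. With an mt-Nd1 limit of 3, the sign turned for Ghitm (−0.83), Naca (0.62), Eloc (0.15) and Rab14 (−0.20). Within RFP-negative EtOH neurons it turned for Ghitm (−1.03), Syt11 (−1.64), Hnrnpa2b1 (−1.13), Atp5g1 (0.14), Atf4 (1.13) and Ndufa4 (−0.37), and with medians for Psmd14 (−0.074). Arithmetic means give no value for the number of genes over 4. No paired analysis was possible because no test was run and replicate numbers only name neurons. Depth is unknown, sides are 13 and 9 neurons of unnamed animals, and RFP-negative sets hold 4 and 3.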
